A study of Mus musculus with 6 samples.

Results

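The circular RNAs (circRNAs) of 3 genes of the circadian clock, Npas2, Clock and Rora, were followed in mouse brain. They were taken by host gene name from a table of 18136 circRNAs and numbered 18, with 10 from Npas2, 3 from Clock and 5 from Rora. Together they held 278 of 190023 back-splice junction reads (0.146%), of which Npas2 held 210, Clock 43 and Rora 25. In a back-splice junction a later exon is spliced backwards onto an earlier one, and a read across that point is the evidence for a circle. The libraries were 3 from WT (wild type) and 3 from A53T transgenic mice, a Parkinson disease model that takes its name from the mutation in the transgene. The labels name brain as the tissue of all 6, the series text the substantia nigra of the midbrain. The sources used here give no age, sex, background strain or promoter of the transgene. They also leave out whether each library of a group came from an animal of its own, so the spread between libraries may be technical. Npas2 was chosen by its unadjusted p between A53T and WT in these same libraries, which was among the small ones, and Clock and Rora were added as clock genes. An unadjusted p under 0.05 was found for 4.70% of the 1214 circRNAs tested and 4.79% of the 1377 host genes tested, and for 2.39% and 2.18% it came with a lower level in A53T. All A53T and WT values of Npas2, Clock and Rora are therefore given as a description, with no test.

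NPAS2 and CLOCK are closely related transcription factors of the bHLH-PAS family. Either can pair with BMAL1 and switch on the Period and Cryptochrome genes, whose proteins then repress the pair and close the feedback loop of the clock. NPAS2 is best known from the forebrain, where it can stand in for CLOCK. RORA is an orphan nuclear receptor that activates the gene of BMAL1 and is needed for the development of Purkinje cells in the cerebellum. The circles described below are made from the transcripts of these genes, and neither the linear mRNAs nor the proteins were measured.

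The junctions that define the exonic circles of Npas2 and Clock are shown because they tell the circles of a gene apart. Each sequence gives the last 20 bases of the downstream exon in lower case and then 20 bases of the upstream exon in capitals. The capitals begin at the first base of that exon or, for the inner start, 3 nt inside it. Sequences run 5′ to 3′ on the strand of the gene and come from GENCODE M21 transcripts (GRCm38).
Npas2 exons 2 to 5: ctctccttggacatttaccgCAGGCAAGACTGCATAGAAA
Npas2 exons 2 to 5, inner start: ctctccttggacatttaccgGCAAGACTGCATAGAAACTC
Npas2 exons 2 to 4: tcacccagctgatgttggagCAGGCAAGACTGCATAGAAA
Npas2 exons 2 to 7: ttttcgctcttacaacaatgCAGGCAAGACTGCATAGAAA
Npas2 exons 3 to 5: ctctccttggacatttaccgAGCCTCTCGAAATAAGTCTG
Clock exons 3 to 7: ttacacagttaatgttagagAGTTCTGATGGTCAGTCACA
Clock exons 3 to 6: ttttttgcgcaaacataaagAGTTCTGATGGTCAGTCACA
The first 4 Npas2 junctions start in exon 2 and differ in the last exon or, for the inner start, in whether the first 3 bases of exon 2 are kept. The 2 Clock junctions share exon 3 as their start.

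The main circle of Npas2 ran from exon 2 to exon 5 of 21, at chr1:39302400-39339814 on the plus strand (mm39), with a predicted length of 388 nt. It held 139 of the 210 Npas2 reads (66.2%) and was read in all 6 libraries. By total reads it ranked 144 among the 18136 circRNAs, and 88.3% of the 1214 circRNAs with enough reads for a test (at least 5 in at least 3 libraries) had a lower mean level. It was the only 1 of the 18 circles to pass that filter. Among the 401 host genes with at least 100 reads and at least 2 circRNAs, the most read circle held a median of 53.3% of the reads.

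WT replicates 1, 2 and 3 had 43, 22 and 32 of its reads, and A53T replicates 1, 2 and 3 had 14, 13 and 15. Every A53T library thus lay below every WT library, with WT replicate 2 the nearest to them. As CPM, the reads scaled to a common library total with TMM factors, the level averaged 1039 ± 364.5 CPM over the WT and 446.1 ± 35.2 CPM over the A53T libraries (SD, n = 3 each). The highest A53T library stood at 469.3 CPM and the lowest WT library at 618.3 CPM. All A53T libraries lay below all WT libraries for 6.10% of the 1214 circRNAs as well, and above them for 5.19%. The fitted log2 fold change of A53T against WT was -1.20 with a standard error of 0.36. When single libraries were left out it ran from -1.47 to -1.02.

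The other 9 Npas2 circles held 44 reads in the WT libraries and 27 in the A53T libraries. The circle of exons 2 to 7, 623 nt long, had 7, 2 and 3 reads in WT and 1, 1 and 0 in A53T. Exons 2 to 4, a circle of 298 nt, had 0, 6 and 0 reads in WT and 3, 1 and 0 in A53T. In the latter, WT replicate 2 held all of the WT reads. Exons 3 to 5, 331 nt, had 2, 4 and 1 reads in WT and 2, 0 and 4 in A53T, and exons 3 to 7, 566 nt, had 1, 0 and 0 in WT and 4, 2 and 1 in A53T.

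Circles that started in exon 2 held 58, 32 and 39 reads in WT and 18, 18 and 17 in A53T, so they carried the lower Npas2 level in A53T. Circles that started at exon 3 held 3, 4 and 1 reads in WT and 6, 2 and 5 in A53T, which averaged 79.7 ± 37.6 CPM over the WT and 139.3 ± 70.6 CPM over the A53T libraries (SD, n = 3 each). The groups overlapped in these starts. Starts at exon 3 made up 8 of the 141 Npas2 reads of WT and 13 of the 69 of A53T. These shares are no independent measure, since most of the reads they are taken over belong to the circle whose level in A53T led to the choice of Npas2. This grouping by start was chosen after the values had been seen.

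**Figure D1:**
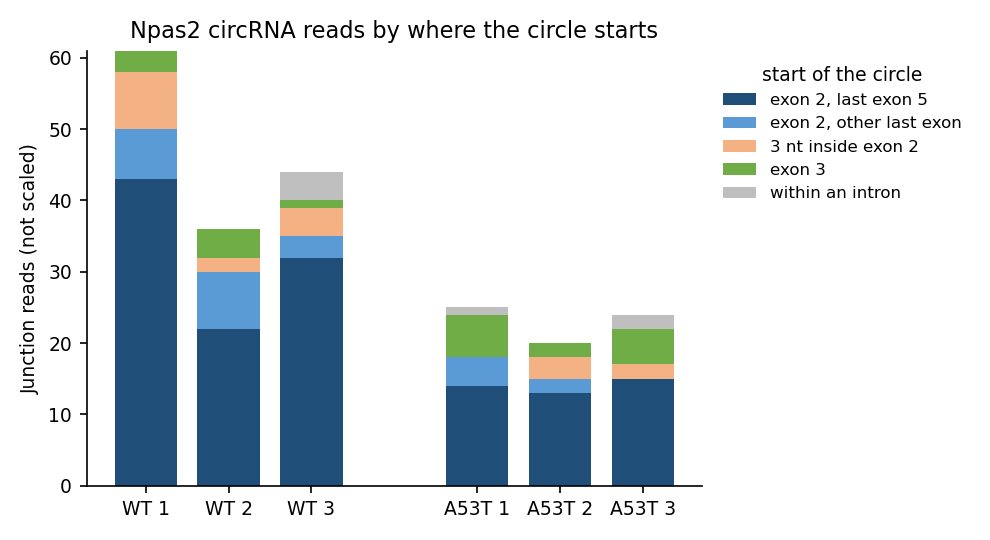
Junction reads of Npas2 (vertical axis, not scaled for depth) in each of the 6 libraries, stacked by where the circle starts. The dark blue part, exons 2 to 5, holds 22 to 43 reads in the WT libraries and 13 to 15 in the A53T libraries, and the green part, starts at exon 3, holds 1 to 4 and 2 to 6.

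Exon 2 of Npas2 was entered at 2 points that lay 3 nt apart. Besides the first base of exon 2, circles started at chr1:39302403, and 19 of the 182 reads that started in exon 2 used this inner start (10.4%, 95% Wilson interval 6.79 to 15.7%). Exon 2 begins with CAG, so the inner start follows directly on an AG, the last bases of a splice acceptor. The inner start had 8, 2 and 4 reads in WT and 0, 3 and 2 in A53T. Of these 19 reads, 17 belonged to the circle that ended with exon 5 and 2 to the circle that ended with exon 7. The table classed the inner-start circles as sense overlapping and listed their genomic spans, 37412 and 49747 nt, as predicted lengths, while their exon-start partners were classed as exonic with 388 and 623 nt.

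Pairs of this kind recurred across the table. Among exonic and sense overlapping circRNAs, 109 pairs shared their last base and had first bases 1 to 30 nt apart, and in 43 of them (39.4%) the distance was 3 nt. Of the 24 such 3 nt pairs with at least 20 reads together, the outer start had more reads in 18, as in Npas2. The less read start held a median of 10.8% of the reads of these pairs, next to 17 of 156 reads (10.9%) for the Npas2 pair that ended with exon 5.

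**Figure D2:**
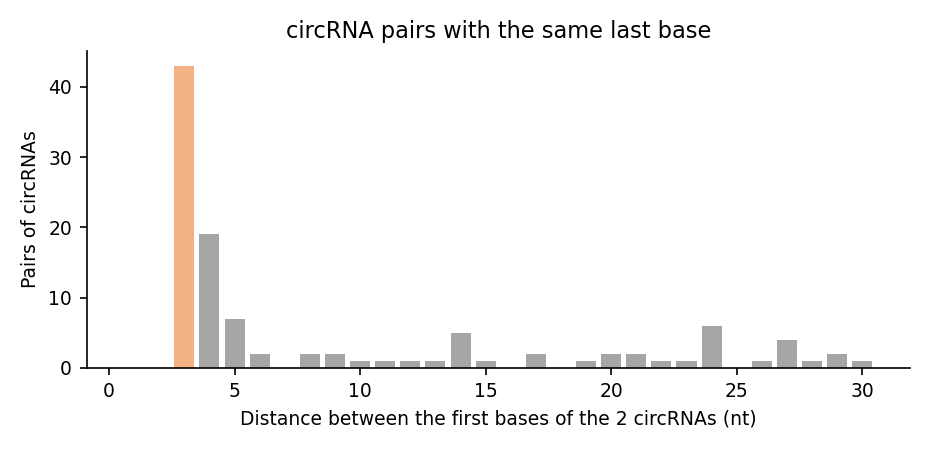
Number of circRNA pairs (vertical axis) that share their last base, by the distance in nt between their first bases (horizontal axis), over all exonic and sense overlapping circRNAs. The bar at 3 nt, with 43 pairs, is the tallest of the 109 pairs shown and holds the Npas2 pairs.

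Npas2 circles ended at few places. Circles that ended with the last base of exon 5 held 172 of the 210 reads (81.9%), those that ended with exon 7 held 24 and those with exon 4 held 10. A circle with 3 reads, at chr1:39259954-39339814, also ended with exon 5 but started inside intron 1. Another, with 2 reads, ended with the last base of exon 2 and started in intron 1 too. The remaining circle, at chr1:39364460-39365147 with 2 reads in WT replicate 3, was intronic. Its first base lay 62060 nt from the first base of exon 2, which is the distance of the first base of intron 9 in GENCODE M21, and its last base lay 21 nt before the end of that 709 nt intron. Intron lariats that escape debranching are known to leave circles that begin at the 5′ splice site. The branch point of this intron was not located here.

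**Figure D3:**
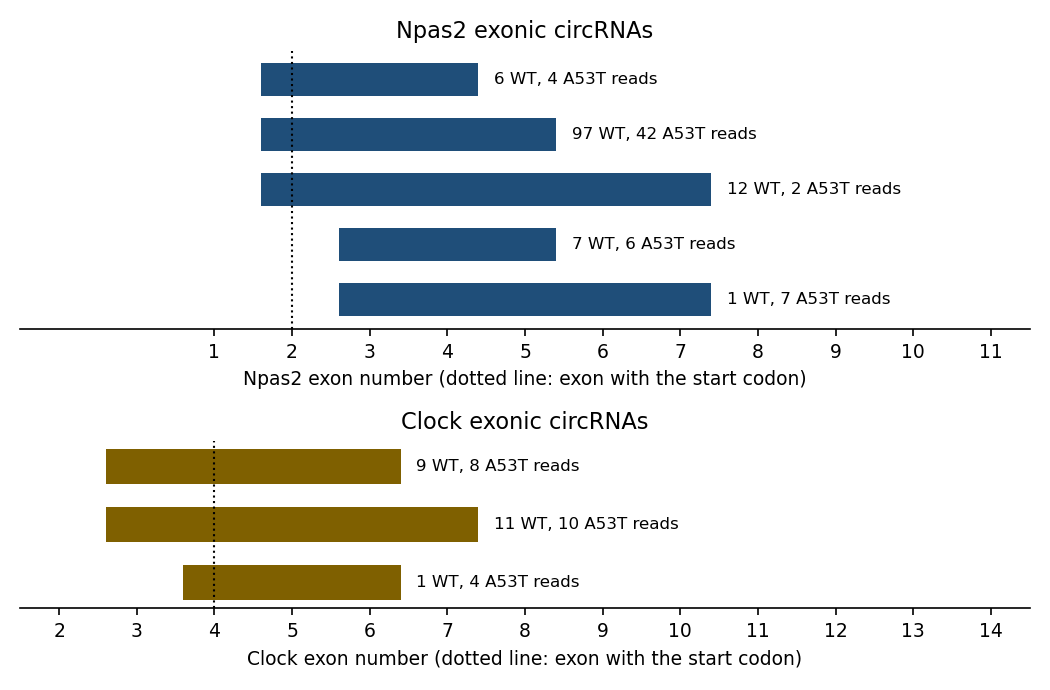
Exons covered by the exonic circRNAs of Npas2 (top) and Clock (bottom); the horizontal axes give exon numbers, set so that Clock exon 6 stands under Npas2 exon 3, and the labels give pooled junction reads per group. The exon with the start codon lies inside 3 of the 5 Npas2 circles and all 3 Clock circles, and exons 2 to 5 of Npas2 carry 97 WT and 42 A53T reads.

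Clock, the paralog of Npas2, made 3 exonic circles, all on the minus strand of chromosome 5. Exons 3 to 7 of 23 formed a circle of 476 nt at chr5:76410522-76421890, with 2, 6 and 3 reads in WT and 4, 0 and 6 in A53T. Exons 3 to 6 formed a circle of 384 nt at chr5:76413638-76421890, with 2, 4 and 3 reads in WT and 1, 4 and 3 in A53T. The groups overlapped for both circles, and exons 3 to 6 was the 1 Clock circle read in all 6 libraries. Exons 4 to 6, 299 nt, had 1 read in WT replicate 2 and 4 reads in A53T replicate 3. Circles that started at exon 3 held 38 of the 43 Clock reads (88.4%).

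Several exons of the genes correspond to each other. Npas2 exons 3, 4 and 5 and Clock exons 6, 7 and 8 have the same lengths, 149, 92 and 90 nt, and are 72.5%, 70.7% and 64.4% identical base by base. Exons 3 and 6 are printed here because they lie in all 5 exonic circles of Npas2 and all 3 of Clock; capitals mark the bases that differ (GENCODE M21, GRCm38).
Npas2 exon 3: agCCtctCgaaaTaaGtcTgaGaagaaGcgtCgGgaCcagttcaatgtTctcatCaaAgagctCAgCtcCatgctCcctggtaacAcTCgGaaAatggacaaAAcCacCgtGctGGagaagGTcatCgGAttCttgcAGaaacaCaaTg
Clock exon 6: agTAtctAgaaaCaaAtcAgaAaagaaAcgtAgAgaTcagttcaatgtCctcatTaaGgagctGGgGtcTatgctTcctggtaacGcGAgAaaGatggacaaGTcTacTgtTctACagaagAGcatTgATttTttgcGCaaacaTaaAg
The longest identical run between these exons was 11 nt, and none was longer in any of the 10 exon pairs of equal length. Circles ended both with Npas2 exon 4 and with its counterpart Clock exon 7, while other ends were listed in just 1 of the genes. Reads ending with Clock exon 6 numbered 22 and with Clock exon 7 numbered 21, whereas no listed circle ended with Clock exon 8, the counterpart of Npas2 exon 5. In Npas2, 10 reads ended with exon 4, the counterpart of Clock exon 7, and no listed circle ended with exon 3.

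The introns before the most used starts of Npas2 and Clock were long, while those before Clock exon 4 and the exonic circles of Rora lay below the median of the table. In GENCODE M21 the intron before Npas2 exon 2 measures 68576 nt, longer than the upstream intron of 94.3% of the 12742 exonic circRNAs that matched a run of exons and had such an intron. That before Clock exon 3 measures 29380 nt, longer than 81.7% of them. The intron before Npas2 exon 3 measures 24092 nt. The intron before Clock exon 4 measures 7069 nt, and those before the exonic circles of Rora, in different transcripts, measure 426 and 793 nt. Over these circRNAs the median was 8262 nt upstream and 6564 nt downstream. The introns after Npas2 exon 5, Clock exon 6 and Clock exon 7 measure 11107, 3024 and 8211 nt.

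Most exonic circles of Npas2 and Clock held the start codon of their gene. It lay in 6 of the 10 exonic circles of the 3 genes, against 13.4% of the 12402 matched circRNAs whose transcript has an annotated start codon. The 10 were counted whether or not their transcript has 1 annotated, so the shares are not over like sets. These 6 all belong to Npas2 and Clock. Circles of the same gene share exons, so they are not independent cases. The study concerns a circRNA that encodes a peptide, so the frame was read on around each predicted circle. From the start codon at position 26 of the Npas2 exons 2 to 5 circle, counted from 1 at the first base of exon 2, the frame ran for 133 codons, crossed the junction and met a TGA stop after 36 further bases. In Clock exons 3 to 7 the frame ran for 163 codons to a TAA stop, 141 bases past the junction. In Clock exons 3 to 6, whose 384 nt are a multiple of 3, it ran for 87 codons and ended 5 bases past the junction. All 6 frames crossed the junction, with 87 to 204 codons. Each of these circles ends within the coding sequence of its gene, so the frame had to reach the junction. The crossing was therefore set in advance and is no sign of coding. A junction read spans just the joined ends, so the inner exons and the frame are predicted, and translation was not measured.

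Rora gave few reads, and most came from introns. Its 3 intronic circles held 20 of 25 reads (80.0%). The most read, 482 nt at chr9:68583931-68584412 on the plus strand, had 3, 5 and 0 reads in WT and 1, 2 and 4 in A53T. The groups overlapped, and WT replicate 3 had none. An intronic circle of 3606 nt had 3 reads, all in A53T replicate 1, and the third, of 485 nt, had 2 in WT replicate 1. The exonic circles were numbered in different transcripts of Rora. They were exons 2 to 3 of 4, 112 nt with 3 reads in A53T, and exons 8 to 10 of 11, 332 nt with 2 reads in WT replicate 3. Neither held an annotated start codon.

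Summed over the circles of a gene, Npas2 had the highest level of the 3 in every library. Its sum was 61, 36 and 44 reads in WT and 25, 20 and 24 in A53T, which averaged 1523 ± 465 CPM over the WT and 740.1 ± 118.5 CPM over the A53T libraries (SD, n = 3 each). Again all A53T libraries lay below all WT libraries, the nearest being A53T replicate 1 at 862.1 CPM and WT replicate 2 at 988.3 CPM. The same held for 4.79% of the 1377 host genes with enough reads for a test. The log2 fold change of the sum was -1.03 with a standard error of 0.31. In bulk tissue, fewer cells of a type and less RNA per cell cannot be told apart.

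Clock and Rora showed no such order. Clock had 4, 11 and 6 reads in WT and 5, 4 and 13 in A53T, or 220.2 ± 92.2 and 231.5 ± 145.2 CPM (SD, n = 3 each). Its log2 fold change was 0.08 with a standard error of 0.72, and it stood at -0.60 without A53T replicate 3, at -0.23 without WT replicate 1 and at 0.39 without WT replicate 2. Rora had 5, 5 and 2 reads in WT and 5, 2 and 6 in A53T, or 122.3 ± 37.8 and 139.4 ± 66.8 CPM. Its log2 fold change was 0.16 with a standard error of 1.04. The ranges of Clock and Rora overlapped in both groups. Within libraries, Clock had fewer reads than Rora in WT replicate 1, as many in A53T replicate 1 and more in the others. All of these counts were low, and the order of Clock and Rora was not tested. Junction reads are counted at 1 point of each circle, so these levels were not scaled by length. Whether the length of a circle affected how well its junction was read was not tested.

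**Figure D4:**
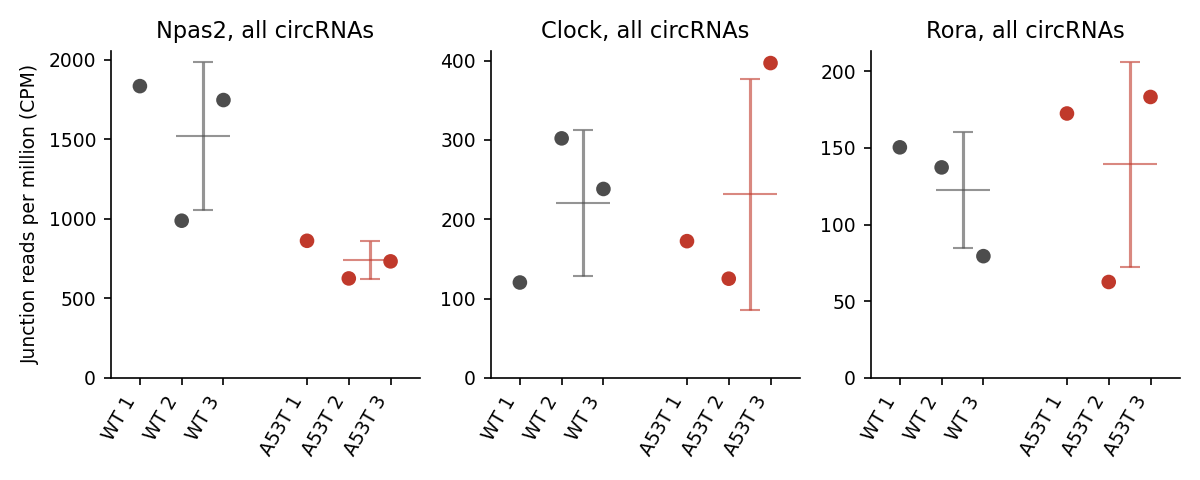
Summed junction reads (CPM, vertical axes, which differ between panels) of Npas2, Clock and Rora in the 6 libraries; points are libraries, horizontal bars with error bars are the group mean and SD. The A53T points of Npas2 lie between 625.5 and 862.1 CPM and its WT points between 988.3 and 1834 CPM, while the groups overlap for Clock and Rora.

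The rest of the clock machinery was hardly seen as circles. Of 20 symbols of other core clock genes, Bmal1 and Bmal2 being given under both a current and an older symbol, 8 had a circRNA and 0 had enough reads for a test. Per3, a Period gene, and Cry1, a Cryptochrome gene, named after their counts were seen, had the most with 13 and 11 reads in all. Arntl, the older symbol of Bmal1, had 3 reads, all in A53T replicate 2. Per2, Cry2, Nr1d1, Nr1d2 and Rorb were among the 12 symbols of this list with no listed circRNA.

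The other lists held relatives and partners of NPAS2, CLOCK and RORA. Of 13 clock kinases, ubiquitin ligases and their kin, 8 had a circRNA and 1 was tested, Fbxw11, a subunit of the ubiquitin ligase that marks Period proteins for breakdown. Its log2 fold change was 1.09 (standard error 1.15), and 0.49 without WT replicate 1. Of 17 other bHLH-PAS genes and coactivators, 9 had a circRNA and 7 were tested. Ncoa2, a nuclear receptor coactivator, had the most reads, 25, 30 and 32 in WT and 25, 28 and 43 in A53T, and a log2 fold change of 0.12 (standard error 0.32). Crebbp, a histone acetyltransferase, averaged 256.2 ± 66.9 CPM over the WT and 495.8 ± 127.2 CPM over the A53T libraries (SD, n = 3 each), and its libraries lay higher in A53T without overlap. The same order held for 5.66% of the 1377 host genes.

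The remaining tested genes of these lists gave log2 fold changes on both sides of 0. They were 0.69 for Npas3, a bHLH-PAS factor of neural development, 0.21 for Arnt2, a partner of many bHLH-PAS factors in neurons, 0.37 for the coactivator Ncoa1, -0.54 for the acetyltransferase Ep300 and -1.17 for Hif1a, the oxygen-regulated bHLH-PAS factor. The Npas3 value was 0.01 without A53T replicate 1 and 1.59 without WT replicate 3. Of 7 corepressors and coactivators of ROR receptors, 6 had a circRNA and 1 was tested, Ncor1, a corepressor that works with the REV-ERB receptors, at -0.27. With edgeR's quasi-likelihood test and Benjamini-Hochberg adjustment over all host genes, 0 of the 9 tested genes and 0% of the 1377 host genes passed the threshold of 0.05. Unadjusted, edgeR put 0 of the 9 and 66 host genes under 0.05, and DESeq2 0 and 48. Their median log2 fold change was 0.21, beside 0.01 over all host genes tested. Without A53T replicate 2 that median was -0.01. Without A53T replicate 3 it was -0.11, over 8 genes, since Fbxw11 then failed the filter.

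**Figure D5:**
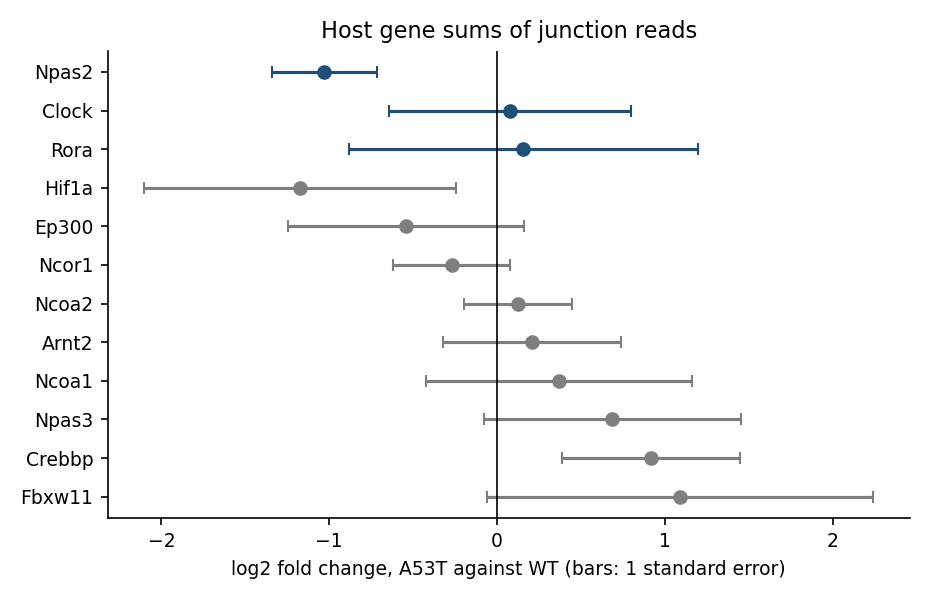
Fitted log2 fold change of A53T against WT (horizontal axis) for the junction reads summed per host gene; points are estimates and bars 1 standard error, with Npas2, Clock and Rora in blue and the 9 tested genes of the clock lists in grey. Npas2 stands at -1.03, Clock at 0.08 and Rora at 0.16, and the grey genes range from -1.17 for Hif1a to 1.09 for Fbxw11.

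The host genes whose sums followed Npas2 most closely over the 6 libraries were Pi4ka, Prkcb, Pspc1 and Wscd2. Pearson's r of log2(CPM + 1) was 0.94, 0.88, 0.88 and 0.85, the highest among 338 host genes with at least 20 reads per library on average. Pi4ka, which encodes a phosphatidylinositol kinase, averaged 1726 CPM over the WT and 1039 CPM over the A53T libraries. Npas2 was chosen by its A53T against WT values, so a gene picked for following it tends to share their order. The Pi4ka means are therefore no separate observation of a difference between the groups. For the exons 2 to 5 circle the closest of 171 circRNAs were those of Pi4ka (r = 0.89), Zfx (0.89), Ttc3 (0.86) and Rims1 (0.83). These are descriptions over 6 libraries that share their depth and scaling, and no p is given.

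Marker genes of brain cells gave little to set beside Npas2. Of 9 dopaminergic neuron markers, Kcnj6 alone had a circRNA, while Th, Slc6a3, Slc18a2 and 5 others had none listed, so circRNAs cannot check the tissue label. The Kcnj6 sum was 541.3 to 741.2 CPM in WT and 758.6 to 1532 CPM in A53T, the reverse of the order of Npas2. All A53T libraries lay above all WT libraries for 5.66% of the 1377 host genes as well. Its log2 fold change was 0.96 (standard error 0.34), with an adjusted p of 0.70 by edgeR's quasi-likelihood test. Of 6 forebrain markers 2 had circRNAs, with sums of 541.3 to 1263 CPM in WT and 406.6 to 896.5 CPM in A53T. The 2 of 6 astrocyte markers summed to 0 to 150.4 and 103.4 to 213.7 CPM, the 3 of 5 thalamus markers to 39.7 to 137.3 and 62.5 to 310.3 CPM, and the 2 of 6 cerebellum markers to 109.8 to 317.6 and 61.1 to 241.4 CPM. Of 7 oligodendrocyte markers 1 had a circRNA, with 2 reads, and of 5 microglia markers 0. The part of these cell types in the Npas2 values was not tested.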

How the data were processed

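Total RNA of the 6 brain libraries was enriched for circRNA and sequenced as a strand-marking library, per the labels' protocols. The deposited table gives counts of back-splice junction reads per circRNA and library and, per the file headers, log2 CPM that the authors made with edgeR. The authors' table also gives another value of no sample, the predicted length. The tools cutadapt 1.9.3, STAR, edgeR 3.16.5 and the build mm39 are named in the submitters' processing notes, with the circRNA caller and any use of strand in counting not given in the sources used here. Each listed circRNA has at least 2 reads in some library. The deposited log2 CPM was used only as a check, with a largest difference of 0.122 from the value recomputed with a prior count of 2.

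Library totals were 25217 to 36390 junction reads, so 1 read was worth 27.5 to 39.7 CPM. Counts of circRNAs, and their sums per host gene without the unnamed circRNAs (0.690 to 0.828% of reads), were fitted with edgeR 4.0.16 in R 4.3.3 (TMM, quasi-likelihood, robust, two-sided, Benjamini-Hochberg, threshold 0.05) after a filter of at least 5 reads in at least 3 libraries. The script was tested on simulated counts. Standard errors come from the F statistic. Alternatives were DESeq2 1.42.0 and its size factors, totals only, other filters, a replicate block, exonic circRNAs only and leaving out each library. PCR reads are not independent molecules where identifiers are lacking, so intervals on pooled reads may be too narrow even for counting error. They do not cover the spread between libraries. Every pair of libraries differed by more than sampling noise (chi-square per degree of freedom 2.19 to 3.14).

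Exons were assigned by matching span and predicted length to runs of exons of the named transcript in GENCODE M21 (GRCm38), in 12794 of 13133 exonic circRNAs; coordinates were not converted. The genes described, the lists and the rule for naming genes (every member past the filter, every tested gene of the clock lists, and the 4 host genes and 4 circRNAs closest to Npas2) were chosen with earlier results of these data known. Figures were drawn with matplotlib 3.10.9.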

Additional observations from a re-analysis of the deposited data

How the results depend on the processing

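Of 202 recomputed values, 199 stayed within 1 SD of the spread between libraries or kept the same count of calls. For genes with few reads that SD was wide, in log2 units 0.78 for Clock and 3.77 for Ncoa1. A change of sign could thus stay within it, and the count of 199 is a weak check for such genes. For Npas2 exons 2 to 5 the SD was 0.42. The 3 values that moved were counts of circRNAs called between A53T and WT, 0 as reported: 1 was called with a filter of at least 10 reads, and leaving out single libraries gave 0 to 1, with 1 called without A53T replicate 2 and 1 without A53T replicate 3. These calls were circRNAs of Erc2 and Nlrp5-ps. Host genes called were 0 under all settings run. The log2 fold change of Npas2 exons 2 to 5 was -1.24 to -1.16 and that of the Npas2 sum -1.06 to -1.01 over the settings that kept all libraries; without single libraries the sum ran from -1.28 to -0.87. Those of Clock and Rora turned sign without single libraries (-0.60 to 0.39 and -0.14 to 0.47), as did those of Arnt2, Ncoa1 and Ncoa2. Without single libraries those of Npas3 ran from 0.01 to 1.59, of Fbxw11 from 0.49 to 1.37 and of Hif1a from -1.48 to -0.64. The ranges of Fbxw11 and Hif1a leave out the fits in which the gene failed the filter. Fbxw11 was fitted only without WT replicate 1, WT replicate 2 or A53T replicate 2. Hif1a was fitted only without WT replicate 3, A53T replicate 2 or A53T replicate 3. The replicate numbers are not said to mark a shared litter or day, and deviations of same-numbered libraries correlated at 0.0067, 0.047 and -0.0002; with the replicate block 0 circRNAs and 0 host genes were called and Npas2 exons 2 to 5 stood at -1.16. Clock and Rora had too few reads for the filter of at least 10. With 0 to 8 reads per library in every circle other than Npas2 exons 2 to 5, depth limits what these circles can show.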
